A study of Mus musculus with 144 samples.

Results

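Blood microRNA (miRNA) of male C57BL/J6 mice was compared between 2 fibrous materials at month 1 after exposure, 120 µg crocidolite asbestos, the positive control of the study, and 40 µg multi-walled carbon nanotubes (MWCNT). The 16 arrays were those whose source label named either exposure at month 1, 8 for crocidolite and 8 for 40 µg MWCNT, of 144 arrays in the series. Each array held the blood RNA of 1 mouse. The mice were 7 weeks old when obtained and their labels name no engineered allele. The MWCNT were the MWNT-7 material. The other exposures of the series were dispersion medium alone (DM, the negative control) and 1, 10 and 80 µg MWCNT, with groups of 8 mice at months 1, 6 and 12. The masses of the materials differed (120 µg and 40 µg), no crocidolite dose matched an MWCNT dose, and the comparison therefore joins the material and its mass, which cannot be told apart.

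miRNAs are short RNAs that guide Argonaute proteins to messenger RNAs with complementary sites, mostly in the 3′ untranslated region, and lower their translation and stability. Those in whole blood come from red cells, platelets, white cells and plasma. In such bulk RNA, fewer cells of a type and less miRNA per cell cannot be told apart. MWCNT and crocidolite are both long, thin and durable particles that stay in the lung and are known for pulmonary inflammation and fibrosis, and crocidolite also for mesothelioma, which is why blood markers of such exposures are sought.

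Probes are named by identifier, because no table used here gives the miRNA behind an identifier. For the same reason no mature sequence is shown, miRNA families could not be looked up, and blood was not checked against its marker miRNAs. Levels are log2 normalized intensities, and differences are crocidolite minus 40 µg MWCNT on that scale unless stated. The level of a probe was compared between arrays. Different probes were set against each other only to sort them from dim to bright.

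Both groups lay almost wholly at the same places on the slides. A slide held at most 4 arrays, in places lettered A to D. Crocidolite had 5 arrays at B and 3 at D, and 40 µg MWCNT had 4 at B, 3 at D and 1 at A. The 16 arrays lay on 14 slides, of which 2 held both groups, and were scanned on 6 days, of which 4 held both groups. The mean brightness of an array before normalization was 7.76 ± 0.19 (SD, n = 8) with crocidolite and 7.66 ± 0.15 with MWCNT (exact permutation test over 12870 regroupings, two-sided, p = 0.247, adjusted p = 0.618 over 5 measures). The number of mouse probes above the detection threshold was 831 ± 96.3 and 811 ± 120 of 1262 (exact permutation p = 0.723, adjusted p = 0.937). The distance of an array to the mean of its group, the array itself included, was 0.222 ± 0.0571 (SD, n = 8) with crocidolite. It was 0.383 ± 0.144 with MWCNT on the log2 scale (exact permutation p = 0.112, adjusted p = 0.560). The difference in distance did not pass the test, and the 3 largest distances of all 16 arrays were those of MWCNT replicates 4 (0.644), 5 (0.553) and 7 (0.407).

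MWCNT replicates 4 and 5 stood apart from the other 14 arrays in a shared set of probes. Their mean correlations with the other 15 arrays were 0.956 and 0.963 over the 742 tested probes, against 0.977 for MWCNT replicate 7 and 0.984 to 0.988 for the other 13 arrays, while the correlation between the pair was 0.994. In 31 probes both arrays lay at least 1 log2 unit below every one of the other 14 arrays, and in 1 probe both lay at least 1 log2 unit above. These probes were chosen for this pattern after their values were seen, so the counts are a description. The 2 probes with the widest gap downward and upward were 2005 and 1106. Background-subtracted intensity of probe 2005 was 853 and 1016 in MWCNT replicates 4 and 5 and 13918 to 30235 in the other 14 arrays. Intensity of probe 1106 was 3445 and 3775 in the same 2 arrays, and its normalized level there was 12.18 and 12.58 against 10.08 to 10.83 in the other 14. The other 6 MWCNT mice overlapped with the crocidolite mice in both probes.

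Low values in MWCNT replicates 4 and 5 follow from how the 31 probes were chosen. The mean over these probes was taken in every array of the series. It was 9.12 and 9.30 in MWCNT replicates 4 and 5, 11.48 to 11.73 in the other 6 MWCNT arrays and 11.18 to 11.64 in the 8 crocidolite arrays. Over the 144 arrays, 11 lay at least 1 log2 unit below the median of all arrays. These were found in 8 of the 18 groups, among them 3 arrays of DM mice and 1 of crocidolite mice at month 6, and 9 of the 11 lay outside the 2 groups compared here. MWCNT replicate 4 shared its slide with crocidolite replicate 5, which had a mean of 11.46. MWCNT replicates 4 and 5 were dim arrays, with a brightness of 7.46 and 7.44. The 6 arrays of the series with the lowest means over the 31 probes were all among the 17 dimmest of the 144, while the other 5 of the 11 ranked from 38 to 77 in brightness, counted from the dimmest. The counts of probes in the comparison of month 1 and the differences of most probes described for it are therefore also given without these 2 arrays; the split by level and the comparisons with other months were made with all arrays only. The part of brightness in the pattern was not tested beyond these values.

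**Figure D1:**
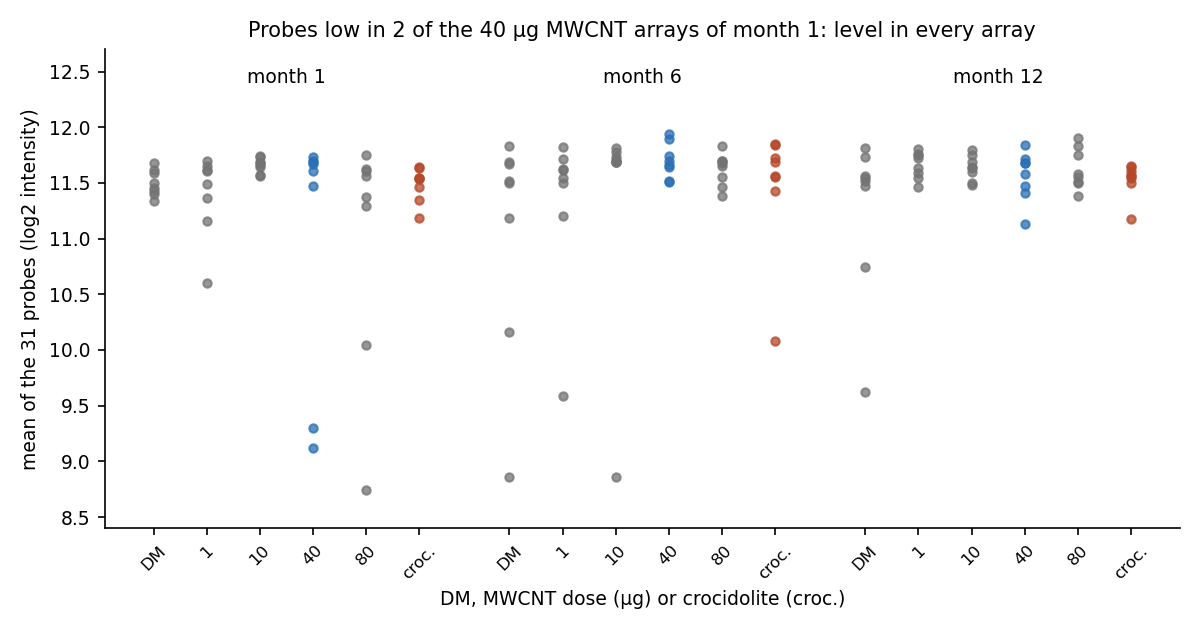
Mean log2 normalized intensity of the 31 probes that were low in MWCNT replicates 4 and 5 of month 1 (y axis), in all 144 arrays by group (x axis, DM, MWCNT dose in µg, or crocidolite), 1 point per mouse. The 2 low points of the 40 µg group at month 1 lie at 9.12 and 9.30, and low arrays also occur among DM mice at months 6 and 12.

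The comparison asked whether blood miRNA distinguishes the 2 materials 1 month after exposure. No difference passed the test. A call needed a limma p under 0.05, under 0.10 after Benjamini-Hochberg adjustment, and a fold of 1.5 or more, and 0 of 742 tested probes (0%) were called, the smallest adjusted p being 0.345. Before adjustment 53 probes (7.14%) had a p under 0.05, 26 higher with crocidolite (3.5%) and 27 lower (3.64%). In none of the 742 probes (0%) did the 8 crocidolite mice and the 8 MWCNT mice not overlap. The differences ranged from -0.63 to 1.67 with a median of -0.01 and a median standard error of 0.11. Of the 742 probes, 323 were higher with crocidolite.

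For most probes the data set a limit on the size of a difference. The 95% confidence interval of the difference lay wholly within 1.5-fold in either direction for 585 probes (78.8%) and reached past 1.5-fold for 157 (21.2%). The limit was weaker with plain background subtraction in place of normexp. With only that change, and quantile normalization kept, the interval lay within 1.5-fold for 484 probes (65.2%). When trimmed-mean scaling, which the study used, also replaced quantile normalization, the number was 401 (54.0%). It was 387 (52.2%) with the deposited values. Normexp with trimmed-mean scaling gave 587 (79.1%). The share of 78.8% depended on the level of the probe. Split by mean level into 3 sets of 247 or 248 probes, the interval lay within 1.5-fold for 248 of 248 probes in the dimmest set, 209 of 247 in the middle set and 128 of 247 in the brightest set. The offset added to every intensity compresses the differences of dim probes, so the limit is on the scale with the offset. At the bright end, 40 tested probes had a saturated spot on at least 1 of the 16 arrays. Of these, 15 were saturated in all 3 spots on all 16. Saturation caps the level, so an interval within 1.5-fold sets no limit for a saturated probe. How many of the counted intervals belong to such probes was not counted. Probes at an unadjusted p under 0.05 were 12 (4.84%), 18 (7.29%) and 23 (9.31%) of the 3 sets, from dim to bright.

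**Figure D2:**
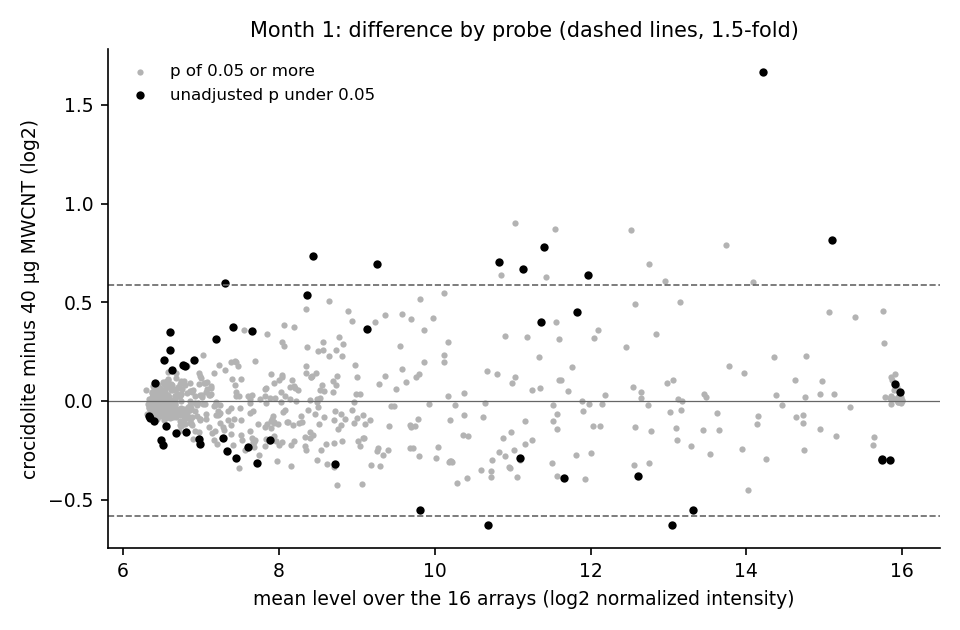
Difference between crocidolite and 40 µg MWCNT at month 1 (y axis, log2) against the mean level over the 16 arrays (x axis, log2 normalized intensity), 1 point per tested probe (742). Black points are the 53 probes at an unadjusted p under 0.05 and dashed lines mark 1.5-fold; 21 probes lie past the lines, 19 of them higher with crocidolite.

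The differences past 1.5-fold were mostly on 1 side. In total 21 probes (2.83%) differed by 1.5-fold or more, 19 higher with crocidolite and 2 lower, and 11 of the 21 had an unadjusted p under 0.05. In 9 of the 19 higher probes MWCNT replicates 4 and 5 lay below all the other 14 arrays, and in another 9 the lowest of the 16 arrays was MWCNT replicate 7. Without replicates 4 and 5, 17 probes differed by 1.5-fold or more, 12 higher and 5 lower, and 10 probes did so with and without them. The median difference of the 31 low probes was 0.42 with all 16 arrays and -0.13 without the 2. Those probes were chosen for being low in the 2 arrays, so a shift of this kind follows from the choice.

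Leaving out these 2 arrays also moved the balance of the probes at an unadjusted p under 0.05. There were then 42, of which 33 were higher with crocidolite and 9 lower, and 21 of them were among the 53 found with all arrays. All 53 kept the direction of their difference. They were picked with all arrays and most of these arrays were kept, so this is no separate support. No probe was called without the 2 arrays either, with a smallest adjusted p of 0.137. The number with an interval within 1.5-fold was 635.

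**Figure D3:**
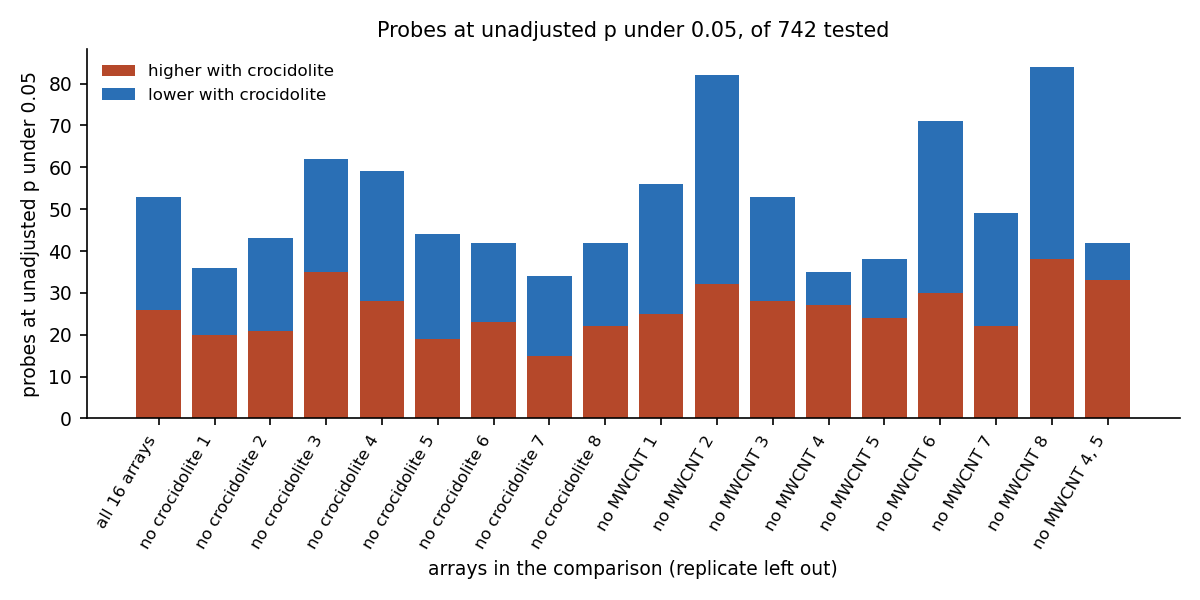
Number of probes at an unadjusted p under 0.05, of 742 tested, higher (red) or lower (blue) with crocidolite (y axis), with all 16 arrays, without each array in turn and without MWCNT replicates 4 and 5 (x axis). The count runs from 34 without crocidolite replicate 7 to 84 without MWCNT replicate 8, and no probe was called in any of these.

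Probe 1763, a bright probe, had the largest difference. Its levels in the 8 crocidolite mice ran from 14.10 to 15.57 with a median of 15.35, and in the 8 MWCNT mice from 11.44 to 14.78 with a median of 13.71. All 8 crocidolite mice lay above the MWCNT median, and 3 of the 8 MWCNT mice lay within the crocidolite range. The lowest 3 MWCNT mice were replicates 5 (11.44), 4 (12.11) and 7 (12.26). Background-subtracted intensity was 1765, 3156 and 3767 in these 3 mice and 17048 to 35302 in the other 5, against 19099 to 62104 with crocidolite. On the brightest of these arrays, crocidolite replicate 5, 2 of the 3 spots were saturated, so that value is a lower bound. The difference as measured was 1.67 ± 0.52 (SE), or 3.18-fold with a 95% interval of 1.56 to 6.45, at an unadjusted p of 0.0016 and an adjusted p of 0.345 with limma, so it did not pass the test.

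The difference in probe 1763 had the same direction on the 4 scan days that held both groups. It was 1.24, 1.90 and 2.18 with 2 arrays of each group and 3.17 with 1 array of each. MWCNT replicates 4, 5 and 7 were scanned on the days of 1.90, 2.18 and 3.17. The probe was picked for its difference in these same arrays, so the values by day are a description and no separate support. On the slide that held both MWCNT replicate 4 and crocidolite replicate 5, the levels were 12.11 and 15.57, and on the slide with replicate 2 of either group they were 14.78 and 15.50. Without MWCNT replicates 4 and 5 the difference was 1.13 ± 0.55 (adjusted p = 0.783).

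The other groups of month 1 place probe 1763 in context. DM mice ran from 14.89 to 15.43 with a median of 15.12, close to the crocidolite mice. The MWCNT medians were, by rising dose (1, 10, 40 and 80 µg), 14.97, 14.57, 13.71 and 14.83, with ranges that overlapped between neighbouring doses. The dose series alternated with position, since the 10 and 80 µg arrays lay at A and C and those of 1 and 40 µg at B and D but for 1 array. MWCNT at 40 µg differed from DM by -1.76 ± 0.52 (adjusted p = 0.162) and crocidolite from DM by -0.09 ± 0.52 (adjusted p = 0.998), neither of which passed the test. DM mice lay at positions A and C, so for these 2 values position and group cannot be told apart, and all 3 differences share arrays.

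**Figure D4:**
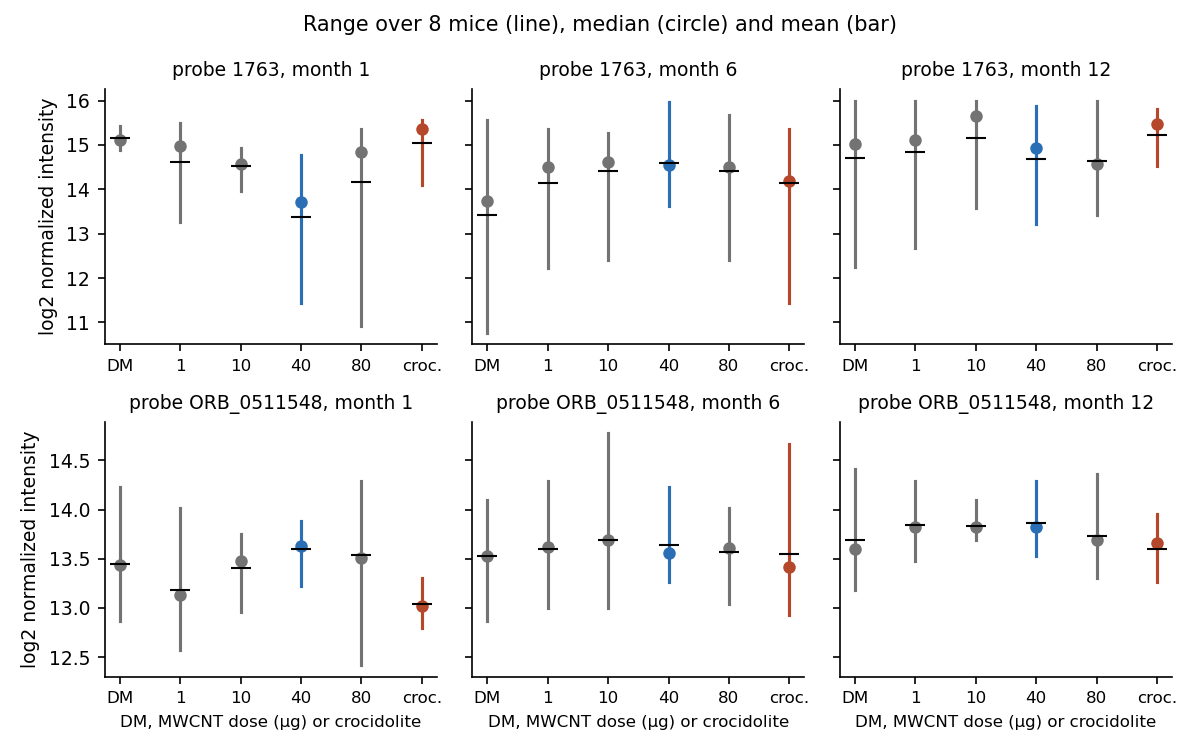
Level of probes 1763 and ORB_0511548 (y axis, log2 normalized intensity) in the 18 groups of 8 mice (x axis, DM, MWCNT dose in µg, or crocidolite, by month); lines span the lowest to the highest mouse, circles are medians and bars are means. At month 1 the 40 µg MWCNT group has the lowest median of probe 1763 (13.71), and the order of the 2 materials is not kept at month 6.

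Probe ORB_0511548 was lower with crocidolite, and it was the only probe called with all 16 arrays under another way of processing the data. Its levels ran from 12.80 to 13.30 with crocidolite (median 13.02) and from 13.22 to 13.89 with MWCNT (median 13.63). All 8 crocidolite mice lay below the MWCNT median, and 2 MWCNT mice lay within the crocidolite range. The difference was -0.56 ± 0.19 (SE), with a 95% interval of -0.94 to -0.17, an unadjusted p of 0.0047 and an adjusted p of 0.502 with limma. The SD within the groups was 0.21 and 0.25, and that of the 10 µg MWCNT group of month 1 was 0.28. The 3 other groups of month 1 (DM, 1 and 80 µg MWCNT) had SDs of 0.50, 0.51 and 0.59, and limma over all groups shares 1 estimate of the spread. With limma on the 16 arrays alone the adjusted p was 0.101. On these values the fold of 1.47 was under the limit of 1.5, so no p could have made this probe a call.

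The call of ORB_0511548 depended on the test, the background subtraction and the scaling together. With the background subtraction, trimmed-mean scaling and 2-group analysis of variance of the study's methods, called the methods' F test here, the difference was -0.64 and the adjusted p 0.0543, which made it the only call of 742 (0.135%). With the deposited normalized values and the same test the adjusted p was 0.0353. With normexp, the same scaling and the same test it was 0.102, which is no call, and limma on the first 2 sets of values gave 0.423 and 0.388. On the 4 shared scan days the difference was -0.55, -0.53, -0.21 and -1.09, the last from 1 array of each group. Without MWCNT replicates 4 and 5 the difference was -0.61 ± 0.21 with limma (adjusted p = 0.184). Levels in DM mice of month 1 ran from 12.86 to 14.23 and covered nearly the whole range of both groups.

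Probe ORB_1210663 had the smallest p of all probes, at a level near the detection limit. Its levels ran from 6.53 to 6.94 with crocidolite and from 6.32 to 6.66 with MWCNT, and it was above threshold on 8 and 6 of the 8 arrays. Background-subtracted intensity was 34.7 to 77.3 with crocidolite and 23 to 46 with MWCNT. The difference was 0.26 ± 0.08 (SE), with an unadjusted p of 8.4e-04 and an adjusted p of 0.345 with limma. The size depended on the offset and the scaling: it was 0.64 ± 0.19 with plain subtraction and quantile normalization (adjusted p = 0.421), 0.59 ± 0.23 with the deposited values (adjusted p = 0.819) and 0.19 ± 0.16 with normexp and trimmed-mean scaling (unadjusted p = 0.236). Without MWCNT replicates 4 and 5 it was 0.26 ± 0.08 (adjusted p = 0.137). By scan day, in the same arrays that gave the smallest p, the difference ran from 0.12 to 0.40 on the 4 days with both groups. DM mice of month 1 ran from 6.34 to 6.85, across most of both ranges.

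**Figure D5:**
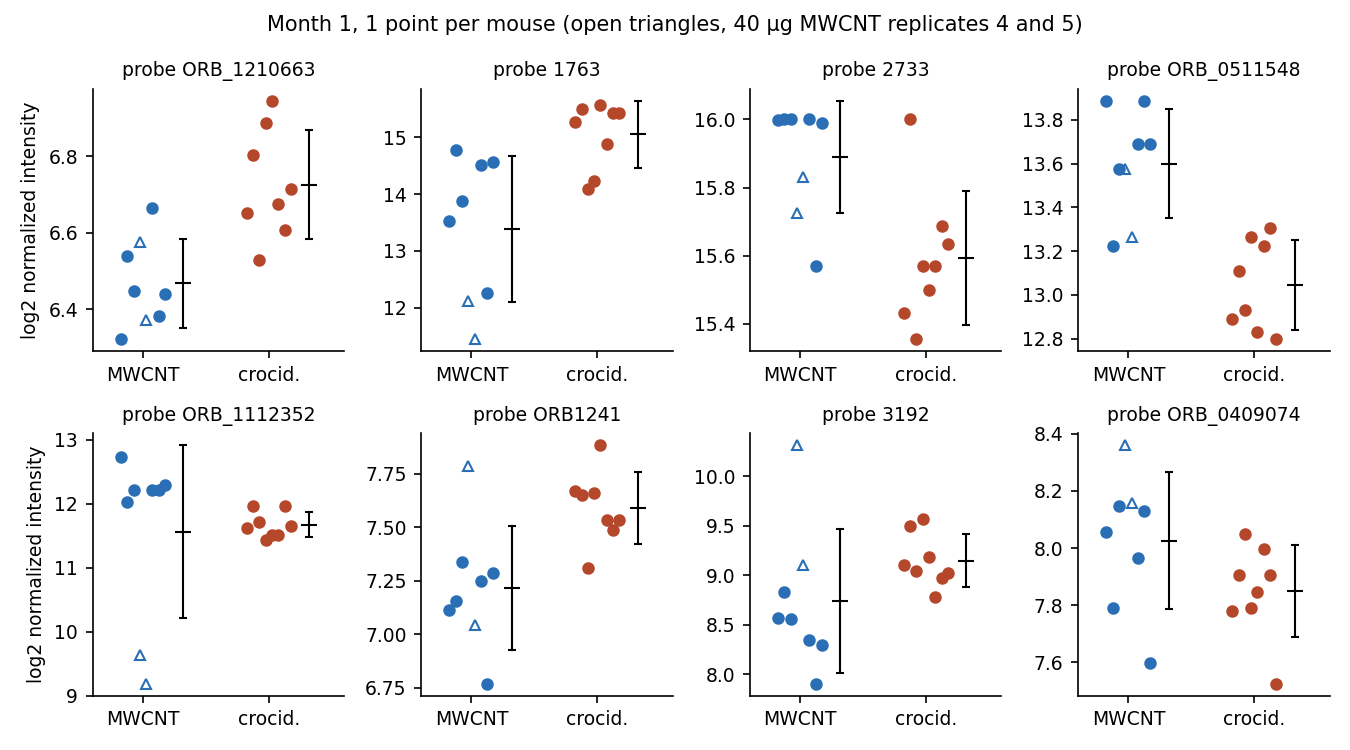
Levels of 8 probes (y axes, log2 normalized intensity) in the 8 MWCNT (blue) and 8 crocidolite (red) mice of month 1, with the mean and SD beside each group and MWCNT replicates 4 and 5 as open triangles. All 8 probes overlap between the groups; replicates 4 and 5 are the lowest MWCNT mice in probes 1763 and ORB_1112352 and the highest in probe 3192, and probe 2733 reaches the ceiling of the scanner near 16.0.

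Both probes with the smallest p among those lower with crocidolite lay at the ceiling of the scanner. Probe 2733 ran from 15.35 to 16.00 with crocidolite and from 15.57 to 16.00 with MWCNT, and all 3 of its spots were saturated on 1 and 5 of the 8 arrays. At least 1 spot was saturated on 5 of the 8 arrays in each group. Its difference of -0.30 ± 0.09 (SE, adjusted p = 0.345 with limma) was thus measured between 2 groups that were both partly saturated, MWCNT more so. It was -0.11 ± 0.12 with normexp and trimmed-mean scaling (unadjusted p = 0.357), -0.12 ± 0.13 with the deposited values (unadjusted p = 0.340), -0.34 ± 0.09 with array brightness as a linear term (adjusted p = 0.0916, under the fold limit) and -0.33 ± 0.10 without MWCNT replicates 4 and 5 (adjusted p = 0.137). Probe ORB_1008001 was saturated in all 3 spots on all 8 MWCNT arrays and on 7 of 8 crocidolite arrays, so only a bound is known and no fold is given. On crocidolite replicate 1, 1 of its 3 spots read 1236 and the other 2 were saturated, and the p of this probe (0.0019) came from that spot: without the array the difference was -0.02. Of the tested probes, 40 had a saturated spot on at least 1 of the 16 arrays, and 7 of the 53 probes at an unadjusted p under 0.05 were among them. The probe with the highest mean level, ORB_0510279, was saturated in all 3 spots on all 16 arrays.

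The methods' F test was also run without MWCNT replicates 4 and 5, a combination chosen after the arrays were seen to stand apart. It called 10 of the 742 tested probes, 8 higher with crocidolite and 2 lower, at adjusted p values of 0.0502 to 0.0934. They included ORB_0511548 and ORB_1210663. The higher probe with the smallest p was ORB1241. Its levels ran from 7.31 to 7.88 with crocidolite and from 6.77 to 7.79 with MWCNT, where replicate 4 was the highest mouse. Its difference was 0.37 ± 0.14 (adjusted p = 0.592) with limma on all arrays and 0.44 ± 0.15 (adjusted p = 0.184) with limma without the 2.

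Probes 3192 and ORB_1112352, also among the 10, were probes in which MWCNT replicates 4 and 5 lay away from the other MWCNT mice. In probe 3192 the 8 crocidolite mice ran from 8.78 to 9.56, and MWCNT replicates 4 and 5 were at 10.31 and 9.10 while the other 6 MWCNT mice ran from 7.90 to 8.83. Its difference was 0.41 ± 0.25 with all arrays and 0.73 ± 0.26 without the 2 (limma, adjusted p = 0.649 and 0.244). In probe ORB_1112352 crocidolite mice ran from 11.44 to 11.96, the other 6 MWCNT mice from 12.03 to 12.72, and replicates 4 and 5 were at 9.63 and 9.19. Its difference turned from 0.11 ± 0.32 to -0.61 ± 0.30 (adjusted p = 0.932 and 0.833). No limma setting called any of these probes.

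At months 6 and 12 the same exposures were compared in other mice. No probe was called at either month, and before adjustment a p under 0.05 was found for 14 probes (1.89%) at month 6 and 29 (3.91%) at month 12. Of the 53 probes of month 1, 29 (54.7%) had the same sign at month 6, against 44.5% of all 742, and 36 (67.9%) at month 12, against 56.7%. The differences of the 742 probes correlated with those of month 1 at r = -0.22 for month 6 and r = 0.38 for month 12, across probes that share arrays and are not independent. The mean of the 31 low probes was 9.12 and 9.30 in MWCNT replicates 4 and 5 at month 1 and 10.08 in crocidolite replicate 1 at month 6. At month 12 the lowest arrays of these 2 exposures were at 11.13 (40 µg MWCNT) and 11.17 (crocidolite). The low arrays thus lay in opposite groups at months 1 and 6, and their part in these correlations was not tested. Probe 1763 differed by -0.45 ± 0.52 at month 6 and 0.53 ± 0.52 at month 12, and ORB_0511548 by -0.08 ± 0.19 and -0.26 ± 0.19.

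Whether the difference between the materials changed with the month was tested directly. No probe passed (0 of 742 at an adjusted p under 0.10, 0%; 19, or 2.56%, at an unadjusted p under 0.05, with limma). The smallest p was that of probe ORB_0409074 (0.0033, adjusted p = 0.865). Its differences were -0.18 at month 1, 0.27 at month 6 and -0.24 at month 12, each ± 0.11 (SE). Its month 1 levels ran from 7.53 to 8.05 with crocidolite and from 7.60 to 8.36 with MWCNT. For probe 1763 the p of this test was 0.0173 (adjusted p = 0.996).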

How the data were processed

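Total RNA of mouse blood was reduced to low-molecular-weight RNA, labelled with 1 dye and hybridised to custom multi-species miRNA arrays, each mouse probe being spotted 3 times, per the labels. The authors scanned the arrays and deposited median foreground and local background intensity per spot, with a quality flag (other). They also deposited a table of log2 normalized values for 1262 mouse probes, which equalled their background-subtracted log2 means plus 1 constant per array.

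Scanner values were background-corrected with normexp (offset 50, limma 3.58.1, R 4.3.3), spots marked bad were left out, log2 values of a probe were averaged and the mouse probes were quantile normalized over 144 arrays. A probe was tested when above the threshold on all 8 arrays of at least 1 of 18 groups (742 probes). The threshold was the 10% trimmed mean of 21 empty spots plus 5 SD. Limma was fitted on 18 group means. Intensity carries no depth, so precision is limited by how many arrays there are. With 1 array per mouse, the spread joins that between mice with that between arrays, slides and scan days. Mice were numbered in accession order only to name them.

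Named probes were the 2 smallest p values in each direction, up to 2 in each direction called by an alternative, the smallest p of the test by month and the brightest probe. Probes 2005 and 1106 were chosen after their values were seen. The comparison and lists were chosen with earlier results of these data known. Alternatives covered background, scaling, deposited values, filter, slide, scan day, position, brightness, test and arrays left out. 1 scanner file with no sample label was not used.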

Additional observations from a re-analysis of the deposited data

Results flagged for a closer look

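In each group of 8 arrays, named probes and array measures were checked for a single array far from the others; of 28 such checks 4 stood out, and chance gives about 1 in 20. In probe ORB_1008001, crocidolite replicate 1 (13.75) lay below the next crocidolite mouse (15.90) by 0.955 of the whole range of the group, through 1 unsaturated spot. The brightness of crocidolite replicate 4 (8.18) lay above the next array (7.83) by 0.543 of the range. The same array had 1055 probes above threshold against 862 in the next, a gap of 0.656 of the range, and 24 bad spots against 0 to 3 in the other 15 arrays. The local background of MWCNT replicate 3 was 79 against 64 in the next MWCNT array, a gap of 0.714 of the range.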

How the results depend on the processing

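No probe was called in 17 of 20 alternatives or without any 1 of the 16 arrays (0 to 0). The exceptions, each of 742 tested probes, were the methods' F test with their subtraction and scaling (1 probe), the deposited values with that test (1 probe) and the methods' F test without MWCNT replicates 4 and 5 (10 probes). The last 2, normexp with trimmed-mean scaling and F test, and limma without those 2 arrays were chosen after seeing the data. In these calls ORB_0511548 was at -0.64, -0.63 and -0.69, and ORB_1210663, ORB1241 and 3192 at 0.76, 0.74 and 0.79. Probe ORB_1112352 reversed without the 2 arrays (-0.61 with limma, -0.67 with F test) and ranged from -0.23 to 0.27 without single arrays. Probes at an unadjusted p under 0.05 numbered 53, but 26 with normexp and trimmed-mean scaling, 32 with the deposited values, 107 with positions B and D only, 21 with the methods' subtraction, scaling and F test, 13 with normexp, trimmed-mean scaling and F test, and 18 with the deposited values and F test; without single arrays they numbered 34 to 84 (34 without crocidolite replicate 7, 35 without MWCNT replicate 4, 82 without MWCNT replicate 2 and 84 without MWCNT replicate 8). Intervals within 1.5-fold numbered 387 with the deposited values, 1105 with no filter (1262 probes tested), 375 with the deposited values and F test, and 552 to 614 without single arrays. The test of material by month had 0 probes in 4 of 4 alternatives. The difference in detection threshold (crocidolite minus MWCNT, 0.19 intensity units) was -0.78 with positions B and D only and -0.78 to 1.77 without single arrays. The same ranges were -1.70 to 1.39 for local background, -11.9 to 44.1 for probes above threshold, 0.05 to 0.14 for brightness and -0.185 to -0.0945 for distance, which had an exact permutation p of 0.049 and 0.044 without MWCNT replicates 3 and 6. Except where a setting tested more or fewer probes or arrays, the cause was not tested. With positions B and D only, limma also lost the A and C arrays of all other groups, from which the shared spread is estimated. Of the 16 arrays that setting left out only MWCNT replicate 8, so its differences were those found without that replicate. No paired analysis was possible because the labels give no replicate numbers. The repeat scan was not run, since it marks the array in question as bad with all intensities at 0. Saturation limits the bright probes and the offset the dim ones.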
